A study of Mus musculus with 6 samples.

Results

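Receptor-type protein tyrosine phosphatases span the plasma membrane and remove phosphate from tyrosine residues on the inside of the cell, against the action of tyrosine kinases. Their outer parts resemble adhesion molecules and bind neighbouring cells, matrix proteoglycans or secreted factors, and in epithelia many of them sit at cell-cell junctions. The genes described here are 10 members of this family, Ptprk, Ptprm, Ptpru, Ptprf, Ptprs, Ptprd, Ptpra, Ptpre, Ptprg and Ptprj, taken by gene symbol from a table of 22806 features. The family was chosen by a measured value, the log2 fold change of Ptprk, which was among the largest falls in the comparison below, so the values of that comparison describe the members and support nothing about them. Ptprk, inside that choice, had a log2 fold change of -3.62, and the nearest member outside it, Ptprj, had -1.44.

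The cells were 4T1, a mouse mammary carcinoma line. One group of 3 libraries came from cells kept for 24 h with nanoparticles that the labels call CM-PEG-PLGA@DOX/R848, loaded with doxorubicin (DOX), a DNA intercalator and topoisomerase II poison, and R848 (resiquimod), an agonist of the RNA receptors TLR7 and TLR8, at 2 µg/mL by doxorubicin content. The other group of 3 libraries came from cells given phosphate-buffered saline (PBS) for the same time. Both groups are the same cell line, the labels do not spell out CM, and neither free drugs nor empty particles were analysed here. The labels do not tell whether each library is its own culture; the spread behind every p-value may thus be technical. The levels are FPKM, fragments scaled to transcript length and to the mapped fragments of the library, so they can be compared between genes, but the number of reads behind them is unknown.

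Of the epithelial markers, Krt8, Krt18, Krt7 and Cdh1 had means from 18.9 to 685 FPKM over both groups, while Epcam, Krt14 and Cldn7 stayed under 1 FPKM in every library. The 9 epithelial markers summed to 1111 to 1153 FPKM with nanoparticles and 800 to 814 FPKM with PBS. The number of genes listed above 0 was 18319 to 18509 in the nanoparticle libraries and 13544 to 13808 in the PBS libraries. Genes with at least 1 FPKM in 3 of the 6 libraries were tested, 10863 in all, with limma on log2(FPKM + 1) and Benjamini-Hochberg adjustment over all of them. Of these, 46% were called lower and 40.5% higher with nanoparticles at an adjusted p under 0.05, and the median log2 fold change was -0.06. Among the 6 tested epithelial markers, 5 were called higher and 1, Cldn4, was not called.

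Of the 10 members, 6 were tested, and all 6 of these fell with nanoparticles (limma, adjusted p under 0.05 over all tested genes, beside 46% of all tested genes lower and 86.4% called in either direction). With all 6 called lower, none of them could count as a riser at any p-value. The 6 were Ptprk, Ptprs, Ptpra, Ptprj, Ptprf and Ptpre, with a median log2 fold change of -1.20, and 4 of them fell by at least 1 on the log2(FPKM + 1) scale, as 13.5% of tested genes did. In each of the 6, every nanoparticle library lay below every PBS library, as in 46.4% of tested genes. The other members, Ptpru, Ptprm, Ptprg and Ptprd, stayed under 1 FPKM in every library and were not tested. In a bulk sample, fewer cells that express a gene and less of its RNA per cell cannot be told apart.

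**Figure D1:**
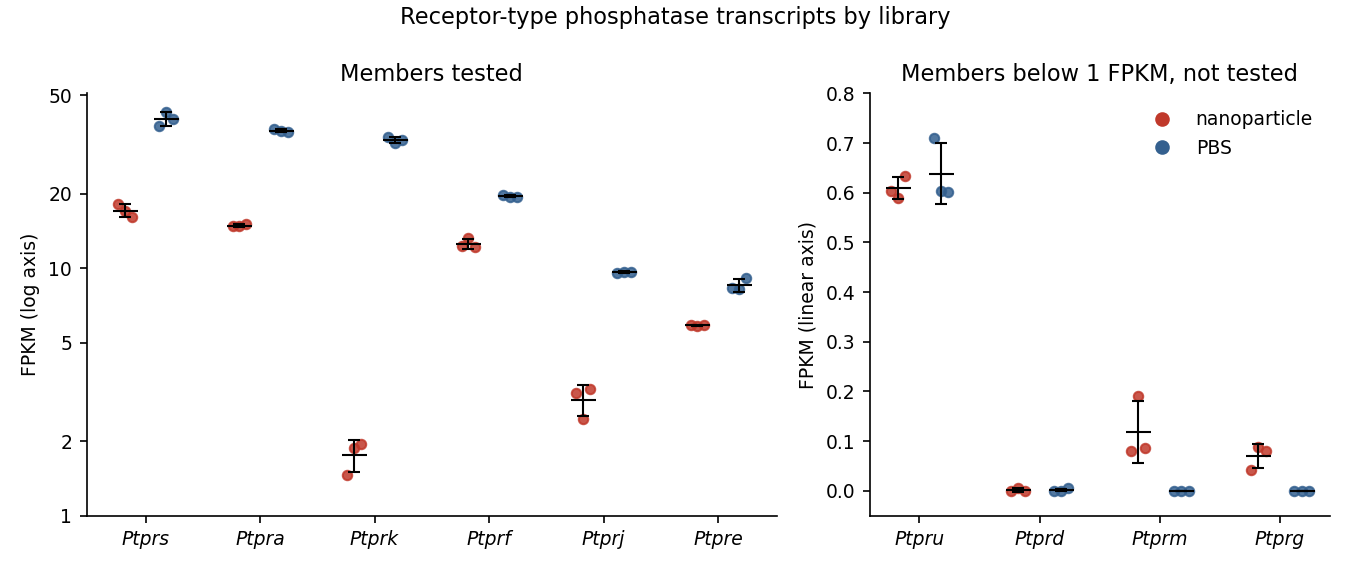
FPKM of the 10 members in each library, with the nanoparticle libraries (red) left of the PBS libraries (blue), points for libraries and black bars for the mean and SD of 3 libraries. The left panel has a log axis and holds the 6 tested members, none of whose groups overlap; the right panel has a linear axis and holds the 4 members that never reached 1 FPKM.

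Ptprk belongs to the R2B subfamily, whose outer part carries MAM, immunoglobulin and fibronectin domains and binds the same protein on the next cell, and whose catalytic domain acts on junction proteins. Ptprk (ENSMUSG00000019889, protein-coding, GRCm38 chromosome 10, 28074820 to 28597397, plus strand) had 1.47, 1.88 and 1.95 FPKM in the nanoparticle libraries, against 34.0, 32.0 and 33.0 FPKM in the PBS libraries. The nanoparticle libraries were all far under the PBS libraries, and their mean of 1.76 ± 0.261 FPKM was 0.0535 of the PBS mean of 33.0 ± 0.986 FPKM (SD, n = 3 each). The log2 fold change was -3.62 with a standard error of 0.07, the lowest but 3 of all tested genes. Its subfamily relatives Ptpru, Ptprm and Ptprt were all under 1 FPKM in every library. Ptpru had 0.605, 0.589 and 0.633 FPKM with nanoparticles and 0.709, 0.604 and 0.601 FPKM with PBS, groups that overlapped. Ptprm, also a homophilic adhesion phosphatase, had 0.0794, 0.19 and 0.0855 FPKM with nanoparticles and was listed at 0 in the 3 PBS libraries. Ptprt, which is not among the 10 genes, averaged 0.0936 ± 0.00695 FPKM with nanoparticles and 0.00848 ± 0.0044 FPKM with PBS (SD, n = 3 each).

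The LAR-type or R2A subfamily carries immunoglobulin and fibronectin domains, binds heparan and chondroitin sulfate proteoglycans and synaptic organisers, and recruits liprins inside the cell. Ptprs, the proteoglycan receptor known as PTP sigma (chromosome 17, 56412426 to 56476483, minus strand), had 18.2, 17.1 and 16.2 FPKM with nanoparticles, against 37.6, 43.0 and 40.1 FPKM with PBS. The groups were well apart, at a ratio of 0.426 between the means and a log2 fold change of -1.18 (standard error 0.06). It stayed the most abundant member in both groups. Ptprf, the gene of LAR itself (chromosome 4, 118208213 to 118291405, minus strand), had 12.3, 13.2 and 12.2 FPKM with nanoparticles, against 19.8, 19.5 and 19.5 FPKM with PBS. That is a smaller fall than that of Ptprs, with a ratio of 0.642 between the means and a log2 fold change of -0.60 (standard error 0.04), and its call was lost in a limma test against a 1.5-fold change. Ptprd, best known from neurons, was listed at 0 in 2 of 3 libraries of each group and reached 0.00627 FPKM at most.

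The R4 subfamily has short, heavily glycosylated outer parts, and Ptpra is known as an activator of Src, from which it removes the inhibitory phosphate. Ptpra (chromosome 2, 130450278 to 130556124, plus strand) had 14.8, 14.8 and 15.1 FPKM with nanoparticles, against 36.5, 35.9 and 35.7 FPKM with PBS. The libraries of each group lay close together, and the ratio of the group means was 0.413, a log2 fold change of -1.22 (standard error 0.03). Ptpre, which has a transmembrane and a cytoplasmic form and is known to act on Src in mouse mammary tumours, lies at chromosome 7, 135537481 to 135686293, plus strand. It had 5.90, 5.84 and 5.91 FPKM with nanoparticles, against 8.30, 8.22 and 9.12 FPKM with PBS. Its fall was the smallest of the 6, with a ratio of 0.688 between the means and a log2 fold change of -0.47 (standard error 0.05), and the same test against a 1.5-fold change did not call it. The values are per gene and do not separate the forms of Ptpre.

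Ptprj, also called DEP-1 or CD148, is an R3 member with a fibronectin-repeat outer part and a lone catalytic domain, and it acts on growth factor receptors. Ptprj (chromosome 2, 90429754 to 90580647, minus strand) had 3.13, 2.46 and 3.24 FPKM with nanoparticles, against 9.60, 9.69 and 9.70 FPKM with PBS. The ratio of the group means was 0.305 and the log2 fold change -1.44 (standard error 0.08), the next largest fall after that of Ptprk. Ptprg, the R5 member with a carbonic anhydrase-like outer domain that binds contactins, had 0.0418, 0.0885 and 0.0806 FPKM with nanoparticles and was listed at 0 in the 3 PBS libraries. Its identifier in the table is newer than the annotation used, so it was placed by symbol.

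The promoters of Ptprk, Ptpra and Ptprs are shown because these were the 3 members with the highest FPKM in PBS cells and all 3 fell. Each run is the 250 bases before the outermost annotated start, 5′ to 3′ on the gene's strand, from RefSeq on GRCm38.p6, and capitals mark the matches to the motifs searched.
Ptprk promoter, chr10:28074570-28074819, plus strand: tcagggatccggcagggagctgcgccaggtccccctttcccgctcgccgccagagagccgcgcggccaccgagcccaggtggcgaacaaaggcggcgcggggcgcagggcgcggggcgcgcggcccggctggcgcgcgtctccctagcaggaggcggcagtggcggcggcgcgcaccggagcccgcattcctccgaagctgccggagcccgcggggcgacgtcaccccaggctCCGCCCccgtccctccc
Ptpra promoter, chr2:130450028-130450277, plus strand: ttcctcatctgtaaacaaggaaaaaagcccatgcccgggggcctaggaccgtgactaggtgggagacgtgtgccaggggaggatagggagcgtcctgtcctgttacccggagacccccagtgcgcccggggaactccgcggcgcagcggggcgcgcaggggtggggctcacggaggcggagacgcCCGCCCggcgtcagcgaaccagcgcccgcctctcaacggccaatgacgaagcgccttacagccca
Ptprs promoter, chr17:56476481-56476730, minus strand: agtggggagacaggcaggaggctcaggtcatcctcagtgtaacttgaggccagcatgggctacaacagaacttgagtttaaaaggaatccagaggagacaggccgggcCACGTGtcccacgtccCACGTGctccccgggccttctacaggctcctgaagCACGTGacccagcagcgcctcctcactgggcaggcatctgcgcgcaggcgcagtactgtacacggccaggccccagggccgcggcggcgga
The motifs were the GC box GGGCGG, the AP-1 site TGANTCA, the CRE TGACGTCA, the E-box CACGTG, the interferon-stimulated response element and the EGR1 site GCGGGGGCG, on both strands; an EGR1 match can share bases with a GC box. The Ptprk and Ptpra windows held 1 GC box each and the Ptprs window held 3 E-boxes. Of the 9 members with a promoter entry, all but Ptprd, 6 held a GC box (Ptprk, Ptpra, Ptprf, Ptprj, Ptpre and Ptprm). A GC box was in 32.9% of 27025 promoter windows over all genes, 1 per gene. Those windows were taken at the first listed start of each gene, the members' windows at the outermost start. For Ptprj the first listed start is an inner one, with no GC box and 3 CpG in its window. An E-box was in 1 member (6.05% of all windows), a CRE in 1, Ptpru (1.62%), and an EGR1 site in 2, Ptpre and Ptprg (2.56%). The AP-1 site (6.87%) and the response element (3.04%) were in none of the 9. The 9 windows were rich in CpG, with 15 to 38 CpG in 250 bases against a median of 6 over all windows, whether the member fell (38 in Ptprk) or stayed at 0.19 FPKM or less (37 in Ptprm).

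The make-up of the family changed along with its total. The summed FPKM of the 10 members was 56.4, 56.1 and 55.3 with nanoparticles, against 146, 149 and 148 with PBS. Ptprk held 3.16 ± 0.49% of that sum with nanoparticles, against 22.3 ± 0.851% with PBS (SD, n = 3 each). Ptprf, one of the least changed, held 22.4 ± 0.979% with nanoparticles and 13.3 ± 0.226% with PBS, and Ptpre held 10.5 ± 0.141% with nanoparticles and 5.79 ± 0.342% with PBS. Shares within a sum move against each other, so a larger share is not a higher level.

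**Figure D2:**
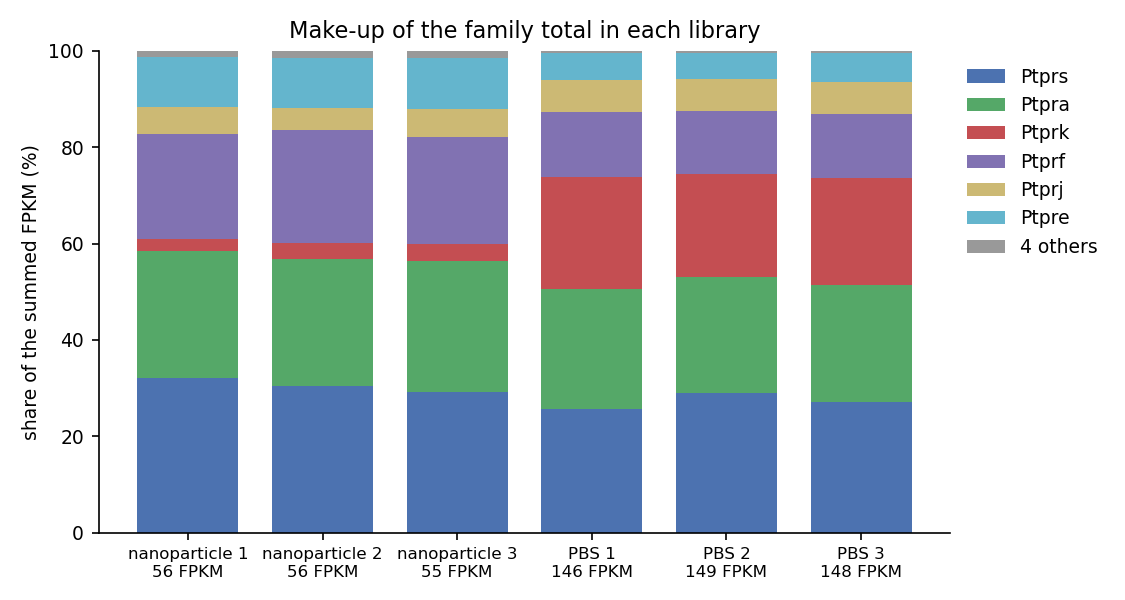
Share of the summed FPKM of the 10 members in each library, in percent, with nanoparticle libraries left of PBS libraries and the sum under each bar. The Ptprk segment is 2.60% to 3.52% of the nanoparticle bars and 21.5% to 23.2% of the PBS bars.

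With nanoparticles the order of levels was Ptprs, Ptpra, Ptprf, Ptpre, Ptprj, Ptprk and Ptpru, and no neighbours among these 7 overlapped in FPKM. With PBS it was Ptprs, Ptpra, Ptprk, Ptprf, Ptprj, Ptpre and Ptpru, again with no overlap between neighbours. Ptprk was thus in place 6 with nanoparticles and in place 3 with PBS. Ptprm and Ptprg, the next in the nanoparticle libraries, overlapped each other.

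The tested members are long genes, and in these libraries long genes were mostly lower. The genomic span from gene start to gene end was 523 kb for Ptprk, 151 kb for Ptprj, 149 kb for Ptpre, 106 kb for Ptpra, 83.2 kb for Ptprf and 64.1 kb for Ptprs, against a median of 23.2 kb over tested genes. Across 10846 tested genes with a span, Spearman's rho of span with log2 fold change was -0.49, a description over genes that share the same 6 libraries. Tested genes of 300 kb or more, 153 with Ptprk among them, had a median log2 fold change of -1.42 (quartiles -1.91 and -0.92), and 96.1% of them were called lower. The Ptprk value of -3.62 was under the lower quartile of that class. This place follows from the choice of the family by the fall of Ptprk. In the class from 120 to 300 kb, 746 genes had a median of -1.13 (quartiles -1.59 and -0.64); Ptprj at -1.44 was between the quartiles and Ptpre at -0.47 above the upper one. In the class from 60 to 120 kb, 1421 genes had a median of -0.69 (quartiles -1.07 and -0.25), with Ptprs at -1.18 and Ptpra at -1.22 under the lower quartile and Ptprf at -0.60 between them.

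**Figure D3:**
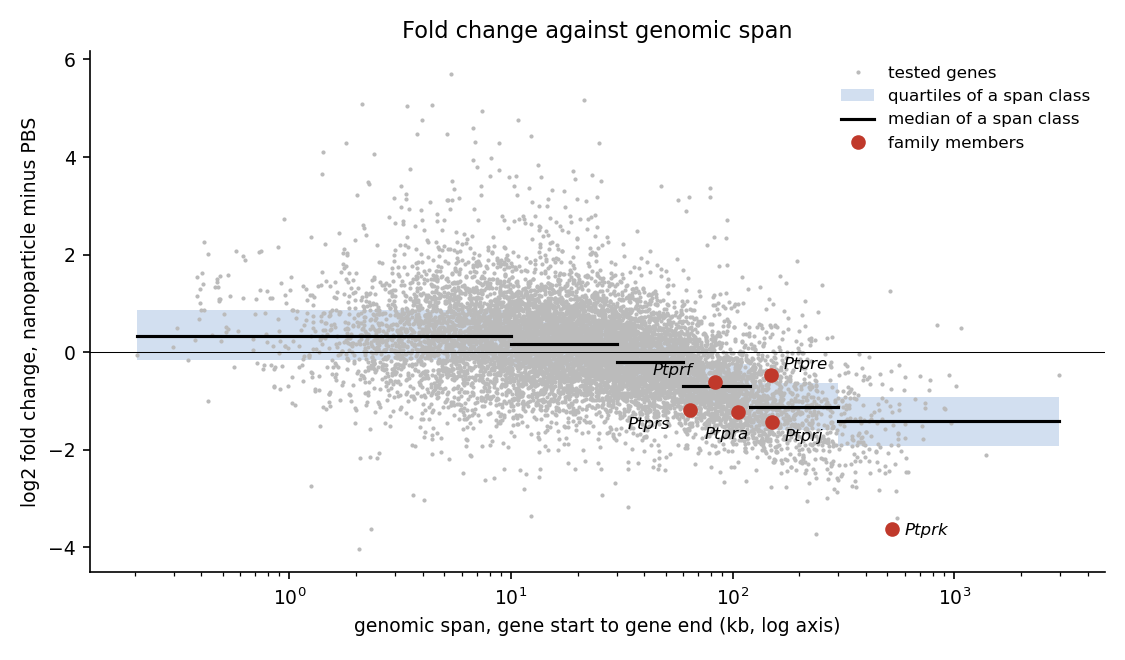
Log2 fold change of log2(FPKM + 1), nanoparticle minus PBS, against genomic span in kb on a log axis for all tested genes (grey), with the median and quartiles of each span class and the 6 tested members in red. The medians go down with span. Ptprk at 523 kb, chosen for its large fall, lies well under its class.

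With the trend of the log2 values on span and exonic length taken out of each library, 4 members were still called lower, 1 was called higher and 1 was not called. Over all genes tested in that setting, 46.7% were called lower and 37.7% higher. The log2 fold change was then -2.15 (standard error 0.08) for Ptprk, -0.70 (0.05) for Ptprs, -0.49 (0.08) for Ptprj and -0.44 (0.03) for Ptpra. Ptprf was then at 0.021 (standard error 0.04) and not called, and Ptpre, at 0.49 (standard error 0.05), was the one called higher. The part of span in these falls was not tested further.

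**Figure D4:**
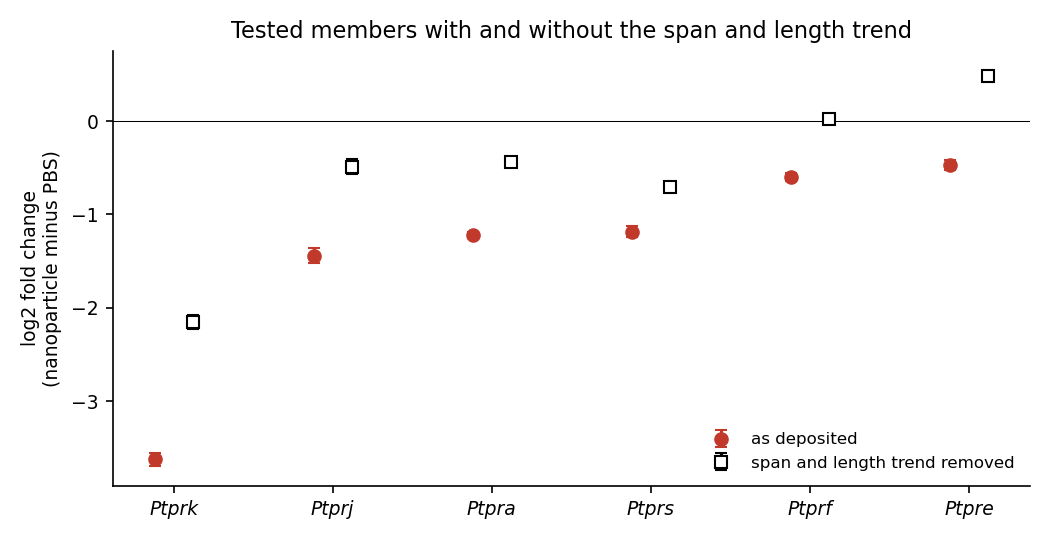
Log2 fold change, nanoparticle minus PBS, of the 6 tested members from the deposited values (red circles) and after taking out the trend on span and length (open squares), with standard errors. Ptprk, chosen for its large fall, stays lowest at -2.15, and Ptprf and Ptpre end at 0.021 and 0.49.

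Of the 11 other receptor-type phosphatase genes, 10 stayed under 1 FPKM in every library, and 8 were listed at 0 in all 3 PBS libraries. Ptprv passed the filter through its PBS libraries only, so its direction was fixed: it had 0.304, 0.258 and 0.281 FPKM with nanoparticles, against 1.31, 1.21 and 1.29 FPKM with PBS. Ptprc, which encodes the leukocyte marker CD45, had 0.581, 0.389 and 0.612 FPKM with nanoparticles and was listed at 0 with PBS. Ptprr reached 0.22 to 0.318 FPKM and Ptpro 0.174 to 0.222 FPKM with nanoparticles, and both were listed at 0 with PBS. Of the 21 family genes together, 9 were listed at 0 in all PBS libraries and above 0 in all nanoparticle libraries, a pattern shared by 2632 genes of the table, while 9 genes had the reverse one. The 11 leukocyte and myeloid markers summed to 43.3 to 48.8 FPKM with nanoparticles and 23.0 to 26.6 FPKM with PBS. Of its 4 tested genes, 3 were called higher and 1 lower, beside 40.5% and 46% of all tested genes. The most abundant went opposite ways: Cd68 rose to 35.3 ± 1.56 FPKM with nanoparticles, against 12.2 ± 1.82 FPKM with PBS, and Cd14 fell to 7.13 ± 1.10 FPKM with nanoparticles, against 11.9 ± 0.663 FPKM with PBS. Csf1r had means of 1.45 FPKM with nanoparticles and 0.042 FPKM with PBS, and Mpeg1 had 1.77 and 0.082 FPKM. Both passed the filter through the nanoparticle libraries only, so their direction was fixed. In the leukocyte and myeloid list 7 of 11 genes stayed under 1 FPKM in every library, and Ptprc, Adgre1, Tyrobp and Fcer1g were listed at 0 in every PBS library. Ptprc and Adgre1 were above 0 in every nanoparticle library, Tyrobp was at 0 in nanoparticle library 1, and Fcer1g was at 0 in every library. The 6 neural markers, none of which reached 1 FPKM, summed to 1.38 to 1.61 FPKM with nanoparticles and 0.037 to 0.134 FPKM with PBS, and the 9 lymphocyte markers to 2.52 to 3.04 FPKM with nanoparticles and 1.19 to 1.29 FPKM with PBS. Most of both lymphocyte sums was Lck, a Src family kinase gene, with means of 1.77 FPKM with nanoparticles and 1.08 FPKM with PBS. The other 8 lymphocyte markers stayed under 1 FPKM in every library. The sums of the fibroblast and endothelial lists were lower, through Pdgfra, Pdgfrb and Cdh5. The 7 fibroblast markers summed to 7.69 to 9.49 FPKM with nanoparticles and 32.7 to 33.0 FPKM with PBS. Pdgfra, a growth factor receptor gene, fell by 1.90 and its relative Pdgfrb fell by 1.74 on the log2 scale. The other 5, among them the collagen genes, stayed under 1 FPKM in every library. Each of these 5 was higher in every nanoparticle library than in any PBS library. The 7 endothelial markers summed to 2.23 to 2.51 FPKM with nanoparticles and 8.36 to 8.61 FPKM with PBS. Cdh5, a cadherin gene, fell by 1.89 on the log2 scale. The other 6 stayed under 1 FPKM, and all of them but Cldn5 were higher in every nanoparticle library than in any PBS library. The share of all genes under 1 FPKM that did so was not counted. Near 0 the whole table leaned this way, as the 2632 genes against 9 above show, so these low values are not particular to fibroblast or endothelial markers. The part of any of these lists in the values of the members was not tested.

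The non-receptor classical phosphatases, which share the catalytic domain but lie inside the cell, moved in both directions. Of 15 tested, 9 fell, 5 rose and 1 was not called, with a median log2 fold change of -0.28 beside -0.06 over all tested genes. These counts, and those of the partner lists below, stand beside 46% lower and 40.5% higher over all tested genes. Ptpn3, which has a FERM and a PDZ domain, fell to 3.23 ± 0.052 FPKM with nanoparticles, against 13.1 ± 0.398 FPKM with PBS (log2 fold change -1.73, adjusted p = 9.21e-10, limma), and its relative Ptpn4 fell by 1.48 on the log2 scale. Ptpn23, an endosomal sorting protein, rose to 42.4 ± 0.352 FPKM with nanoparticles, against 26.1 ± 0.942 FPKM with PBS (log2 fold change 0.68, adjusted p = 4.78e-08, limma). Ptpn11, which encodes SHP2, a positive regulator of RAS signalling, rose by 0.21 on the log2 scale, while Ptpn12 fell by 0.65 and Ptpn6, which encodes SHP1, fell by 0.54. Ptpn2 was at 22.5 ± 1.51 FPKM with nanoparticles and 23.9 ± 0.890 FPKM with PBS and was not called (adjusted p = 0.173, limma).

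Among the ligands and outer partners, 11 of 32 genes were tested, of which 10 fell and 1 rose, with a median log2 fold change of -0.85. The cell surface heparan sulfate proteoglycans, which Ptprs and its relatives bind, were lower: Sdc2 fell to 12.4 ± 0.314 FPKM with nanoparticles, against 53.2 ± 0.783 FPKM with PBS (log2 fold change -2.02, adjusted p = 5.14e-11, limma). Sdc1 fell by 0.58, Sdc4 by 0.85, Gpc1 by 0.70 and Gpc4 by 1.64 on the log2 scale. The matrix proteoglycans of this list fell too, Hspg2 by 0.95, Col18a1 by 0.58 and Agrn by 0.17. Thbs1, the gene of thrombospondin, known in human cells as a ligand of Ptprj, was the one that rose, to 66.1 ± 1.28 FPKM with nanoparticles, against 27.8 ± 0.406 FPKM with PBS (log2 fold change 1.22, adjusted p = 3.92e-10, limma). The contactins, Slitrk genes, Ptn and Mdk were under 1 FPKM in every library.

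The list of junction partners and substrates of these phosphatases also split. Of 11 tested, 7 fell, 3 rose and 1 was not called, with a median log2 fold change of -0.89. Pard3, a polarity scaffold of 548 kb, fell to 1.76 ± 0.227 FPKM with nanoparticles, against 18.7 ± 1.32 FPKM with PBS (log2 fold change -2.84, adjusted p = 5.86e-10, limma), and Afdn, the gene of afadin, fell to 8.72 ± 0.375 FPKM with nanoparticles, against 41.8 ± 1.21 FPKM with PBS. Both are known as substrates of the human PTPRK protein, as are p120 catenin and plakophilins. Ctnna1 fell by 1.36, Ctnnd1, the gene of p120 catenin, by 0.89 and Pkp4 by 1.25 on the log2 scale. Jup, the gene of plakoglobin, rose by 0.75, Pkp3 by 0.51 and Cdh1 by 0.25. Ctnnb1, which encodes beta-catenin, was at 238 ± 2.4 FPKM with nanoparticles and 231 ± 10.2 FPKM with PBS and was not called (adjusted p = 0.224, limma). The genes of this list that fell had a median span of 136 kb and those that rose one of 28.8 kb.

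Of the 5 tested liprins and other partners of LAR, 4 fell and 1 rose, with a median log2 fold change of -0.43. Ppfibp1, a liprin beta gene, fell to 15.6 ± 0.556 FPKM with nanoparticles, against 54.0 ± 0.536 FPKM with PBS (log2 fold change -1.73, adjusted p = 1.48e-10, limma), Trio, an exchange factor for small GTPases, fell by 1.59 and Caskin2 rose by 0.53 on the log2 scale. Of the 10 tested genes that cut the outer part of these phosphatases or release their inner part, 5 fell, 4 rose and 1 was not called, with a median of -0.20. Those counts are near the shares over all tested genes, 46% lower and 40.5% higher. Adam10, a sheddase of Ptprk, fell to 14.1 ± 0.227 FPKM with nanoparticles, against 46.1 ± 0.354 FPKM with PBS (log2 fold change -1.64, adjusted p = 1.14e-10, limma). Adam17 fell by 1.17 and Ncstn, a subunit of gamma-secretase, by 0.48, while the subunit genes Psenen and Aph1a rose by 0.20 and 0.12 on the log2 scale. Furin, the convertase that cleaves several of these proteins on their way to the surface, was at 33.2 ± 1.34 FPKM with nanoparticles and 31.3 ± 0.906 FPKM with PBS and was not called (adjusted p = 0.0863, limma).

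Of 8 tested genes of Src family kinases and their regulators, 6 fell and 2 rose, with a median log2 fold change of -0.78. Src, on which Ptpra and Ptpre act, fell to 25.8 ± 0.834 FPKM with nanoparticles, against 38.1 ± 0.972 FPKM with PBS (log2 fold change -0.55, adjusted p = 3.44e-07, limma). Csk, the kinase that adds the phosphate which Ptpra removes, fell by 1.66, the Src relatives Fyn and Yes1 by 1.49 and 1.02, and the adaptor Grb2 by 0.20 on the log2 scale. Bcar1, the gene of the Src substrate p130Cas, rose by 0.53.

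**Figure D5:**
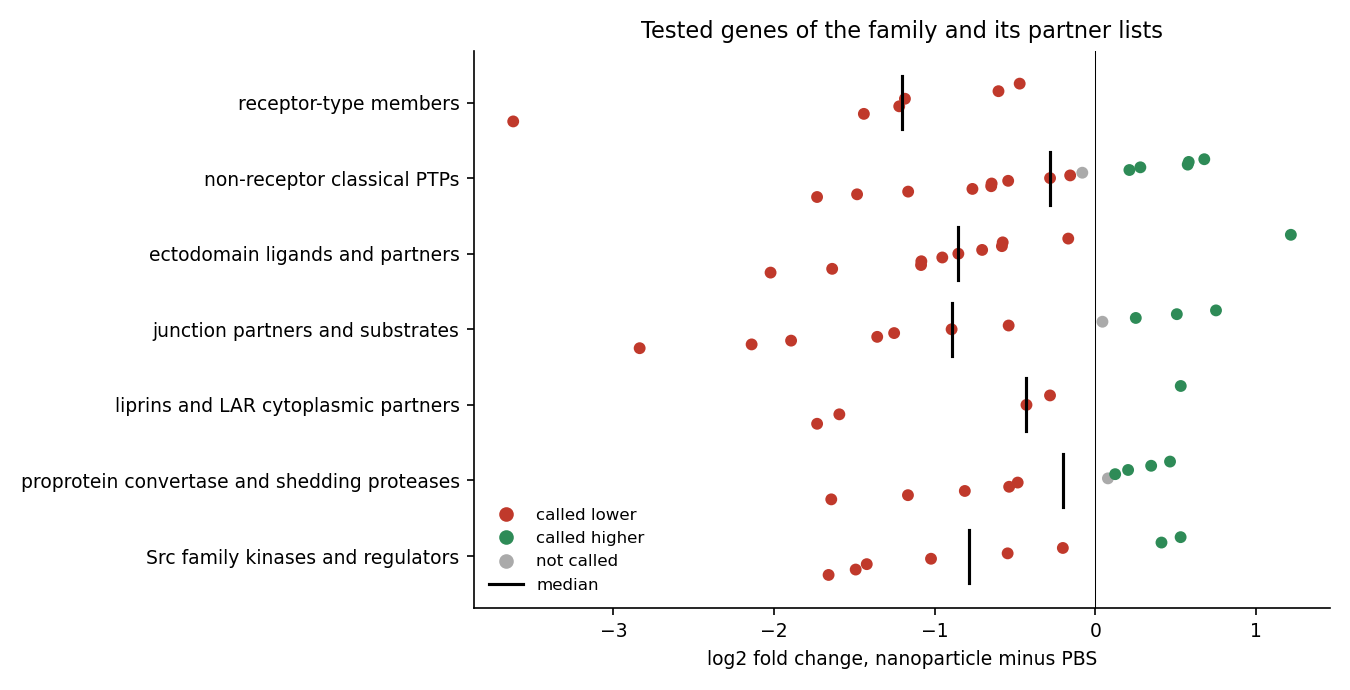
Log2 fold change of log2(FPKM + 1), nanoparticle minus PBS, for the tested members and the tested genes of 6 partner lists, 1 point per gene, coloured by call (limma, adjusted p under 0.05), with black bars at the medians. All 6 members lie left of 0, while each partner list holds genes on both sides.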

How the data were processed

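Messenger RNA was sequenced from 6 libraries of 4T1 cells, 3 per group. The deposited values are FPKM; the unit was inferred from the values, which are not whole and do not sum to 1 total. The tools STAR and featureCounts and the builds GRCm38 and mm10 are named, without roles, per the submitters' processing notes; no source used here gives the program behind the FPKM values or the strandedness. Ratios of values under 0.2 FPKM showed no steps of 1 read (at most 1.86% of ratios in any 1% bin), so no counts were recovered, depth is unknown and limma was used in place of a count test.

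The 701 features without a gene identifier were left out. Log2(FPKM + 1) values of the 10863 genes that reached 1 FPKM in at least 3 libraries were fitted with limma 3.58.1 (lmFit, eBayes with trend and robust settings) in R 4.3.3 with statmod 1.5.0, nanoparticle minus PBS, with 2-sided p-values adjusted over all tested genes and called under 0.05. A fold change on this scale understates the change of low genes. The script was tested on simulated data. Positions, span and exonic length came from GENCODE M21 (GRCm38), matched by gene ID for 21995 of 22105 genes and by symbol for 29 more. Exons of Ptpra and Ptpre overlap antisense genes over 3.01% and 2.05% of their length, and without known strand these reads cannot be told apart. Those of Ptprm overlap a processed pseudogene on the same strand over 5.18% of their length. Python 3.11.15 with pandas 2.3.3 and matplotlib 3.10.9 was used for the rest.

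Members, partner lists and markers were chosen with earlier results of these data known. The partner genes named are, per list, the 3 of smallest adjusted p and any gene whose mean reached 20 FPKM in either group; Ptpro, Ptprr, Ptprc, Ptprt and Ptprv were chosen after their values were seen. Some genes that this rule names are counted but not reported by name here.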

Additional observations from a re-analysis of the deposited data

How the results depend on the processing

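The 6 tested members were called lower under every alternative but 2. A test against a 1.5-fold change called 4 of them lower, and 2341 genes lower and 1853 higher in all, against 4996 and 4395 as reported. Removing the span and length trend also left 4, with Ptprf at 0.021 and Ptpre at 0.49 on the log2 scale and 1 member called higher. With no filter on low values 2 members, Ptprm and Ptprg (log2 fold changes 0.16 and 0.10), were called higher, 8445 genes were higher in all, and 38.2% of calls were lower, against 53.2% as reported. Rescaling to TPM moved the median of all genes by -0.15, and tested members lay between -4.16 (Ptprk with a pseudocount of 0.1) and -0.41 (Ptpre) outside the trend setting. Leaving out each library gave 6 members lower each time, with Ptprk from -3.67 to -3.54.

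Partner counts moved mostly with the same 3 settings. With the trend removed, 9 non-receptor phosphatases rose in place of 5, 8 processing genes fell in place of 5, and 2 genes each rose among ligands, liprins (1 each as reported) and processing genes (4 as reported; 2 also on the TPM scale). In the 1.5-fold test, 4 non-receptor phosphatases fell and 1 rose, 2 liprin genes fell and 0 rose, 3 processing genes fell and 0 rose, 1 junction gene rose and 0 Src-related genes rose. With no filter, 9 of 11 listed other receptor-type genes and 7 of 32 ligand genes were higher. So were 5 of 13 junction, 3 of 9 liprin and 5 of 12 Src-related genes, beside 42% of the 20124 genes tested in that setting. Over all tested genes, 46.7% were lower and 37.7% higher with the trend removed, and 21.6% and 17.1% in the 1.5-fold test. Ptprv was not tested with the filter on the mean or without any 1 PBS library. The cause of these moves was not tested.

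Same-numbered libraries did not deviate together (r from -0.04 to 0.04), and a replicate block left 6 members and 4982 genes lower and 4389 higher. Depth is unknown, so the counting error of low values could not be estimated.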

Other observations

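The tested genes nearest to the tested members, some of them far away, did not all move with them. Of the 12 nearest tested protein-coding genes on either side of the 6 tested members, 4 fell, 5 rose and 3 were not called, beside 46% lower and 40.5% higher over all tested genes. Arhgap18, a GTPase-activating gene of 165 kb that lies 1156 kb from Ptprk, fell to 4.66 ± 0.063 FPKM with nanoparticles, against 30.5 ± 1.8 FPKM with PBS (log2 fold change -2.47, adjusted p = 1.34e-10, limma). Echdc1, 716 kb from Ptprk on the other side, was not called (adjusted p = 0.548, limma). It was at 6.51 ± 0.149 FPKM with nanoparticles and 6.76 ± 0.683 FPKM with PBS. Vps16 and Mrps26, 6.01 kb and 7.62 kb from Ptpra, rose by 0.25 and 0.38 on the log2 scale. Beside Ptpre, Dock1, a gene of 503 kb that lies 364 kb away, fell by 2.07. The proliferation marker gene Mki67, 3.49 kb from Ptpre, rose by 0.43. Kdm4a and Kdm4b, paralogous histone demethylase genes beside Ptprf and Ptprs, were lower: Kdm4a fell to 8.66 ± 0.269 FPKM with nanoparticles, against 26.3 ± 1.20 FPKM with PBS, and Kdm4b fell by 0.28 on the log2 scale. Tincr, on the other side of Ptprs, rose by 0.97. Nup160 and Tnks1bp1, the nearest tested genes on either side of Ptprj, were not called (adjusted p = 0.767 and 0.127, limma). They lie 96.6 kb and 5357 kb from it. Beside Ptpru, which did not reach 1 FPKM, Mecr, 5.18 kb away, rose by 1.03 and Sdc3, 942 kb away, fell by 1.08.

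The genes whose log2(FPKM + 1) values followed those of Ptprk most closely over the 6 libraries were Ywhae, Cds2, Hdac7, Rbfox2 and Dmp1, with Pearson's r from 0.99989 to 0.99996. Their log2 fold changes ranged from -2.81 (Dmp1) to -0.56 (Ywhae). With 3 libraries on each side of a large difference, an r near 1 is common. Of the 8443 genes compared, those averaging 5 FPKM or more, 1818 had an r of at least 0.99.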
